A study of Mesocricetus auratus and Mus musculus with 214 samples.

Results

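A list of 40 genes that encode parts of the sperm flagellum and its axoneme was followed through male germ cell development in the golden hamster, and in the adult testis of hamsters lacking each PIWI protein. The members were chosen by name as known flagellar components and matched from the NCBI gene identifiers of the tables to golden hamster gene symbols. Of the 40 listed genes, 39 were found among the 36133 genes of each table, and Dnah17 was not found. They comprised 5 inner and 4 outer arm dynein subunits, 4 genes of the fibrous sheath and its partners, 2 of the outer dense fibres, 6 of the central apparatus, 5 of the radial spokes, 5 of the molecular ruler, nexin link and tether, 5 tektins and 3 other axoneme factors.

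The axoneme of a sperm tail is a cylinder of microtubule doublets around a central apparatus. Dynein arms drive the sliding of the doublets, radial spokes and the nexin link regulate it, and rulers set the spacing of these parts along the tail. In mammalian sperm, outer dense fibres and a fibrous sheath surround the axoneme. The tail is assembled in spermatids, after meiosis, while the genes for many of its parts are transcribed before the protein is needed, and PIWI proteins bind small RNAs that silence transposons and act on transcripts in the male germ line.

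Messenger RNA was measured in 60 libraries. Whole adult testes gave 2 libraries each for Piwil1-/-, Piwil2-/-, Piwil3-/-, Piwil4-/- and wild-type (WT) hamsters, and testes at 3 days post partum (d.p.p.) gave 2 libraries each for Piwil2-/-, Piwil4-/- and WT. Flow-sorted adult germ cells came in fractions labelled SPG/PL (spermatogonia and pre-leptotene), LZ (leptotene and zygotene), P (pachytene) and D (diplotene), with 3 SPG/PL, 3 LZ, 4 P and 4 D libraries of Piwil1-/- hamsters and 4 of each of WT hamsters, and a separate WT series held 2 libraries each of spermatogonia, pre-leptotene, leptotene, zygotene, pachytene, round sperm and mature sperm. The mutants were germ-line knockouts made by CRISPR–Cas9 and homozygous in every cell of the animal, and no agent was given. Adult age was not given per library, cells were sorted by a Hoechst DNA stain, and the letters A and B on the sorted libraries were not explained, so p-values measure the spread between these libraries. In whole testes, fewer cells of a type and less RNA per cell cannot be told apart.

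Levels in whole testes are fragments per kilobase of gene per 1000 reads of the ERCC spike-in (synthetic RNAs added to each sample), levels in sorted cells are the same per 10000 ERCC reads, and levels of the WT stage series are FPKM, so levels are compared only within a table. The whole-testis libraries held 7976 to 33650 ERCC reads and the sorted libraries 29996 to 190472, which made 1 read in a gene of 1 kb worth 0.0297 to 0.125 and 0.0525 to 0.3334 units. In the adult mutants the targeted transcript was at 0.490 to 0.601 in Piwil2-/- against 11.5 to 13.2 in WT testes for Piwil2, at 0.0159 to 0.0441 in Piwil3-/- against 0.188 to 0.203 in WT testes for Piwil3, and at 0.0186 to 0.0555 in Piwil4-/- against 0.329 to 0.471 in WT testes for Piwil4. Piwil1 transcript was still present, at 14.3 to 21.6 in Piwil1-/- against 35.6 to 37.3 in WT testes. The 2 adult Piwil4-/- libraries stood apart, with 35 of the 39 members higher in library 1 than in library 2 and a median member at 5.18% and 0.351% of the WT mean. Values of all genes summed to 66181 and 59858 in these libraries, and the share of all genes higher in library 1 was not counted. The sorted WT libraries numbered 1 carried more spermatid RNA than those numbered 2, as described with the sorted cells.

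The flagellar genes started in waves through WT spermatogenesis, and most reached their highest level in round sperm. Onset was taken as the earliest stage in which both libraries reached 10% of the gene's highest stage mean, for genes with a stage mean of at least 1 FPKM. By this rule 6 members began in spermatogonia, 6 in leptotene, 3 in zygotene, 13 in pachytene, 9 in round sperm and 1 in mature sperm. Of the 27651 genes at or above the minimum, 48.2% began in spermatogonia, 9.57% in leptotene, 2.29% in zygotene, 3.11% in pachytene, 11.5% in round sperm and 14.9% in mature sperm. The early starts depended on the share required. At 25% of the highest stage mean 1 member each began in spermatogonia, pre-leptotene and leptotene, 2 in zygotene, 17 in pachytene, 14 in round sperm and 2 in mature sperm. At 50% only 9 began before round sperm. Rsph4a, a radial spoke head gene best known from airway cilia, stayed under the minimum. The stage mean was highest in round sperm for 33 of the 38 members with an onset, in mature sperm for 4 and in pachytene for 1, the inner arm dynein gene Dnah1. Over all 27651 genes the highest mean was in round sperm for 16.7%, in mature sperm for 43.98% and in pachytene for 7.81%. Structural class did not fix the stage, since tektins, dynein arms, central apparatus and fibrous sheath genes each had members on both sides of the round sperm boundary.

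**Figure D1:**
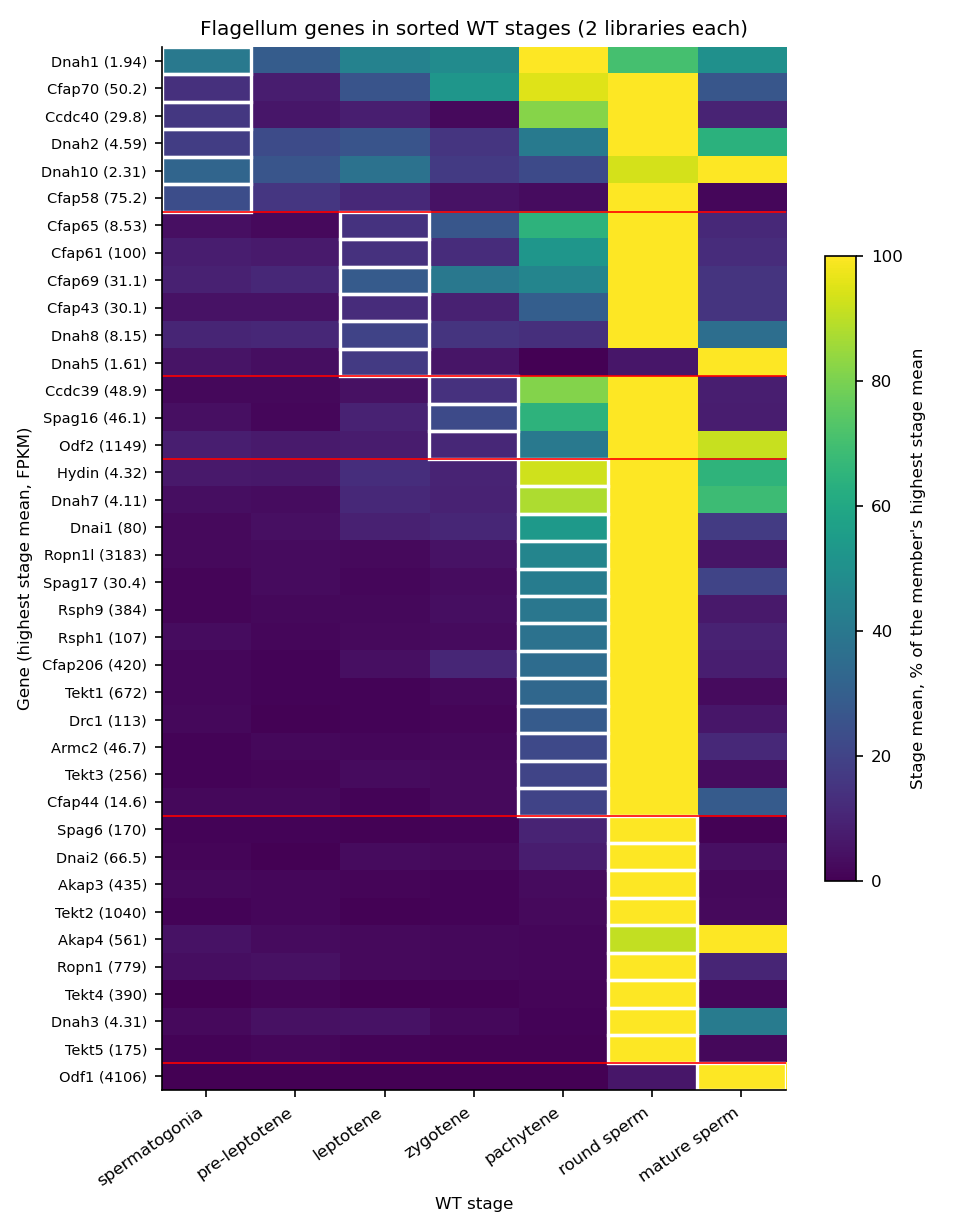
Mean FPKM of each flagellar gene in the 7 WT stages (columns, 2 libraries each, in order of development), coloured by its share of the gene's own highest stage mean; rows are grouped by onset, with a white box at the stage of onset and red lines between onset classes. Of the 38 genes shown, 28 have their onset before round sperm and 10 in round or mature sperm, and 33 are highest in round sperm.

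Of the 6 members that began in spermatogonia, Cfap58, Cfap70 and Ccdc40 had the highest stage means. Cfap58, a factor needed for sperm tail assembly in the mouse, had 18.05 and 17.7 FPKM in spermatogonia, 11.0 and 12.5 in pre-leptotene, 9.83 and 7.66 in leptotene, 3.12 and 4.48 in zygotene, 3.05 and 1.87 in pachytene, 80.4 and 70.1 in round sperm, and 0.905 and 1.92 in mature sperm. Its course thus had an early level, a low point in pachytene and a second, higher level in round sperm. Cfap70, a protein linked to the outer dynein arm, had 7.26 and 6.54 FPKM in spermatogonia, 4.26 and 3.67 in pre-leptotene, 16.4 and 9.63 in leptotene, 26.8 and 25.9 in zygotene, 51.9 and 43.3 in pachytene, 52.5 and 47.8 in round sperm, and 10.7 and 16.4 in mature sperm. Ccdc40, which with Ccdc39 forms the molecular ruler of the axoneme, had 5.23 and 4.32 FPKM in spermatogonia, 2.13 and 1.44 in pre-leptotene, 2.38 and 2.67 in leptotene, 0.469 and 1.09 in zygotene, 23.2 and 25.4 in pachytene, 26.003 and 33.5 in round sperm, and 1.99 and 3.82 in mature sperm. Cfap70 was already near its highest level in pachytene, whereas Ccdc40 was lowest just before it.

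By the 10% rule Odf1 alone began in mature sperm, as round sperm held 6.21% of its highest stage mean. With mature sperm left out of the highest stage mean, 10 members began in round sperm and 0 in mature sperm. Tekt2 and Ropn1 had the highest stage means of the 9 members that began in round sperm by the main rule. Odf1, a main protein of the outer dense fibres, had 3.01 to 20.6 FPKM over the 10 libraries of the stages before round sperm, then 292 and 218 in round sperm and 2855 and 5357 in mature sperm. Tekt2, a tektin of the doublet microtubules, had 4.32 to 22.4 FPKM from spermatogonia to zygotene, 32.6 and 22.2 in pachytene, 1159 and 921 in round sperm, and 31.2 and 25.0 in mature sperm. Ropn1, which binds the A-kinase anchoring proteins of the fibrous sheath, had 6.16 to 63.2 FPKM over the 10 libraries before round sperm, 768 and 790.4 in round sperm, and 57.7 and 104 in mature sperm. The fibrous sheath gene Akap4 was at 453 and 565 FPKM in round sperm and 418 and 703 in mature sperm.

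Some signal of late genes was listed before round sperm, and it was uneven between libraries of a stage. Ropn1 had 6.16 and 63.2 FPKM and Akap4 3.38 and 28.2 FPKM in pre-leptotene libraries 1 and 2. A list of 5 markers of elongating spermatids moved the same way, with a summed 157 and 1035 FPKM in these libraries, against 6802 to 8904 in round sperm and 19601 to 36655 in mature sperm. No defining marker of the list was at 0 in any stage, and its part in the early signal was not tested.

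Each step of the series was tested with limma on log2(FPKM + 1), and a gene was called where it differed at least 4-fold at an adjusted p under 0.01. Members were tested where they passed a filter on low values (above 2 in 40% or more of the compared libraries), so that a member that passed only through the stage where it is high had to differ. None of 22 members tested was called higher in pre-leptotene than in spermatogonia (1 at an unadjusted p under 0.05), where 0.173% of all genes tested were called. Between leptotene and pre-leptotene none of 21 was called (7 at an unadjusted p under 0.05, against 0.3325% of all genes called). At an adjusted p under 0.05 with no fold limit, 6 members rose in leptotene, against 4.66% of all genes tested. These were Cfap206 by 1.75 on the log2 scale, Spag16 by 1.55, Cfap70 by 1.45, Cfap43 by 0.99, Dnai1 by 0.98 and Cfap61 by 0.86, and they include spoke, central apparatus, tether and outer arm genes.

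Zygotene added a few further steps. None of 22 members was called by limma between zygotene and leptotene (7 at an unadjusted p under 0.05, against 0.520% of all genes called), and 4 rose at an adjusted p under 0.05 (7.31% of all genes). They were Cfap206, by 1.38 on the log2 scale, the ruler gene Ccdc39, by 1.34, Spag16, by 1.08, and Cfap70, by 1.01. Cfap58 fell by 1.03 (limma, adjusted p = 0.018) and Ccdc40 fell by 1.01 (limma, adjusted p = 0.026), the direction opposite to most other members at this step.

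The pachytene and round sperm steps carried most of the change. In pachytene, 12 of 31 members tested were called higher than in zygotene, against 7.39% of all genes, and 25 rose at an adjusted p under 0.05, against 24.2%. The log2 differences of the called members ran from 2.22 in Dnai1 to 3.85 in Ccdc40, with Tekt1 at 3.81, the nexin link gene Drc1 at 3.67, the spoke head genes Rsph9 at 3.30 and Rsph1 at 3.28, and Ropn1l at 3.22. In round sperm, 14 of 36 members tested were called higher than in pachytene, against 27.1% of all genes, and 29 rose at an adjusted p under 0.05, against 40.8%. Here the called members were led by Tekt5 at 6.27, Tekt4 at 5.84, Ropn1 at 5.83, Akap4 at 5.65, Odf1 at 5.25, Tekt2 at 5.21, Akap3 at 4.99 and Cfap58 at 4.48. Spag6, Tekt3 and Armc2 were called at both steps. Without pachytene library 1 the pachytene count was 7, and without round sperm library 1 the round sperm count was 9, since fewer members passed the filter.

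In mature sperm, 25 of 36 members tested were called lower than in round sperm, against 15.01% of all genes, with log2 differences from -6.32 in Spag6 to -2.16 in Spag17. Odf1 went against the others and rose by 3.95 on the log2 scale (limma, adjusted p = 0.00013). Akap4, at 0.10, the inner arm dynein gene Dnah10, at 0.03, and Odf2, at -0.15, did not pass the test in either direction.

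In WT adult testes the means of the 39 members ran from 0 to 598, with a median of 13.8, 23 members over 10 and 5 under 1. The 5 inner arm dynein genes were all under 2, up to 1.96 in Dnah7. Both adult libraries were above both 3 d.p.p. WT libraries in 37 of all 39 members. The same was not counted over all genes, whose values summed to 151097 to 153413 in adult and 43135 to 64331 in 3 d.p.p. WT libraries. All 30 members tested rose in adult against 3 d.p.p. WT testes and were called, where 34.5% of all genes were called, with log2 differences from 2.17 in Cfap65 to 7.66 in Ropn1l. Without WT adult library 2 fewer members passed the filter and 2 were called, against 30 with the tested genes kept. Of these 30, 28 passed the filter through the adult libraries alone, so the count was largely set by the filter. At 3 d.p.p. 37 of the 39 members were under 2 in every library of the 3 genotypes, and only Odf2, at 2.33 to 3.73, which also encodes a centrosomal protein, and Ropn1l, at 0.994 to 3.25, exceeded it. At this age limma called none of 37 members lower in Piwil2-/- than in WT testes (0% of all genes, none at an unadjusted p under 0.05) and none of 39 in Piwil4-/- (0.00466% of all genes, none at an unadjusted p under 0.05). A member under 2 in every library cannot fall 4-fold on the log2(value + 1) scale. Most members thus could not be called lower at this age, and the counts say nothing about a loss in them. Fewer than 5000 genes passed the filter at 3 d.p.p., so the minimum there was any value above 0.

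Loss of Piwil1 divided the flagellar genes sharply. Of 32 members tested in adult Piwil1-/- against WT testes, 8 were called lower, where 13.7% of all genes were called, and 17 fell at an adjusted p under 0.05, against 28.7% of all genes. The 8 were Ropn1, Akap4, Akap3, Tekt5, Tekt2, Tekt4, Odf1 and Spag6, and they were at 0 to 8.49% of the WT mean. Of the 32, 6 passed the filter through the WT libraries alone (Ropn1, Akap4, Akap3, Tekt5, Odf1 and Spag6), and these had to differ. The other 24 had log2 differences from -1.96 to -0.05, and all 32 estimates were negative, with a median of -0.89 against -0.13 over all genes tested. The 4 adult mutant comparisons share the 2 WT libraries. Without WT library 1 or 2 fewer members passed the filter and 2 or 3 were called, and with the tested genes kept 8 to 9 were called.

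Of the 4 fibrous sheath genes, 3 were called. Akap4, its main structural protein, had 0 reads in both Piwil1-/- libraries, against 91.5 and 200.3 units in the WT testes, or 7313 reads. Against a floor of 3 reads over the group, Akap4 was at least 4002-fold lower in Piwil1-/- testes (limma, adjusted p = 1.18e-11). Akap3, which is made before Akap4 and laid down with it, had 1.13 and 1.69 units in Piwil1-/- testes, against 66.3 and 83.2 in WT testes. It was lower by a log2 difference of -4.97 (SE 0.21, limma, adjusted p = 4.94e-11), and the groups were far apart. Ropn1 had 0.109 and 0 units in Piwil1-/- testes, or 2 reads, against 117 and 179.6 in WT testes, or 2555 reads, which is a ratio of 2097 (95% counting interval 580.0 to 17327).

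Its paralog Ropn1l did not follow. Ropn1l, which binds the same anchoring proteins and is also found in cilia, had 193 and 353 units in Piwil1-/- testes, against 577 and 618 in WT testes. Both Piwil1-/- libraries were below both WT libraries, but the log2 difference of -1.19 (SE 0.69) did not pass the test (limma, adjusted p = 0.204). Ropn1l had its onset in pachytene and Ropn1 in round sperm. The genes are similar in sequence and multi-mapping reads were counted. In the Piwil1-/- testes Ropn1l had 3222 and 3336 reads where Ropn1 had 2 and 0. Sharing of reads between the 2 genes was not tested.

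The tektins were split in the same manner. Tekt5 had 0.0306 and 0 units in Piwil1-/- testes, or 1 read, against 28.6 and 40.1 in WT testes, or 1055 reads, a ratio of 1732 (95% counting interval 310 to 68472). Tekt2 had 2.04 and 2.33 units in Piwil1-/- testes, against 98.8 and 97.1 in WT testes, a log2 difference of -4.96 (SE 0.30, limma, adjusted p = 2.83e-09). Tekt4 had 1.57 and 4.13 units in Piwil1-/- testes, against 37.97 and 37.998 in WT testes, a log2 difference of -3.42 (SE 0.26, limma, adjusted p = 3.24e-08). For these 3 tektins no Piwil1-/- library came near a WT library. Tekt1 had 26.9 and 54.4 units in Piwil1-/- testes, against 88.98 and 86.3 in WT testes, a log2 difference of -1.17 (limma, adjusted p = 0.0511), and Tekt3 fell by 1.15 on the log2 scale (limma, adjusted p = 0.0168).

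The outer dense fibre genes also parted. Odf1 had 0.411 and 0.819 units in Piwil1-/- testes, against 38.7 and 56.9 in WT testes, and averaged 1.29% of WT (log2 difference -4.90, SE 0.20, limma, adjusted p = 3.8e-11). Odf2 had 80.9 and 159.8 units in Piwil1-/- testes, against 288 and 366 in WT testes, and averaged 36.8% of WT (log2 difference -1.51, SE 0.57, limma, adjusted p = 0.0545). The estimate for Odf2 passed an adjusted p of 0.05 when the compared groups were fitted alone (limma, adjusted p = 0.0126).

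Of the central apparatus genes Spag6 was called. Spag6, a central apparatus protein, had 0.775 and 1.98 units in Piwil1-/- testes, against 15.6 and 16.8 in WT testes, and fell to 8.49% of WT (log2 difference -2.90, SE 0.21, limma, adjusted p = 1.88e-08). The central apparatus genes Spag16 and Spag17 fell by 0.76 and 0.94 on the log2 scale, while Cfap65 and Cfap69 did not pass the test. Cfap206, the most abundant spoke gene, had 31.9 and 61.5 units in Piwil1-/- testes, against 82.9 and 74.6 in WT testes (log2 difference -0.81, limma, adjusted p = 0.198). Of the spoke genes only Rsph1 fell at an adjusted p under 0.05, by 1.16 on the log2 scale (limma, adjusted p = 0.00633). In Rsph9, Cfap61 and Cfap206 both Piwil1-/- libraries were also below both WT libraries, without passing the test.

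Limma called no ruler, nexin link or dynein gene lower. Drc1 had 9.57 and 24.5 units in Piwil1-/- testes, against 27.2 and 21.6 in WT testes, and the groups overlapped (log2 difference -0.62, limma, adjusted p = 0.171). Dnai1, an intermediate chain of the outer arm, had 8.11 and 18.6 units in Piwil1-/- testes, against 15.8 and 15.5 in WT testes (log2 difference -0.32, limma, adjusted p = 0.492). Dnah7, an inner arm heavy chain, had 1.08 and 2.19 units in Piwil1-/- testes, against 2.46 and 1.45 in WT testes (log2 difference -0.18, limma, adjusted p = 0.489). In each of these 3 genes Piwil1-/- library 2 lay inside or above the WT range and library 1 below it.

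The 5 members nearest to WT included Dnah7, Ccdc40, Cfap70, Cfap69 and Cfap65. Ccdc40 had 7.73 and 15.2 units in Piwil1-/- testes, against 12.4 and 10.4 in WT testes, and its mean was at 101% of WT (log2 difference -0.05, SE 0.26, limma, adjusted p = 0.899). Cfap70 had 9.98 and 16.5 units in Piwil1-/- testes, against 16.5 and 13.6 in WT testes, and Cfap69 had 5.22 and 9.25 units in Piwil1-/- testes, against 8.30 and 9.13 in WT testes. Cfap65 had 1.95 and 3.49 units in Piwil1-/- testes, against 4.19 and 2.95 in WT testes. All 5 overlapped between the groups, and across the 39 members Piwil1-/- library 2 was the higher in 33, with a median of 63.3% of the WT mean against 36.3% in library 1. This was not particular to the members, as values of all genes summed to 125900 in library 2 and 90718 in library 1. These libraries held 10371 and 18343 ERCC reads, and the share of all genes higher in library 2 was not counted.

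**Figure D2:**
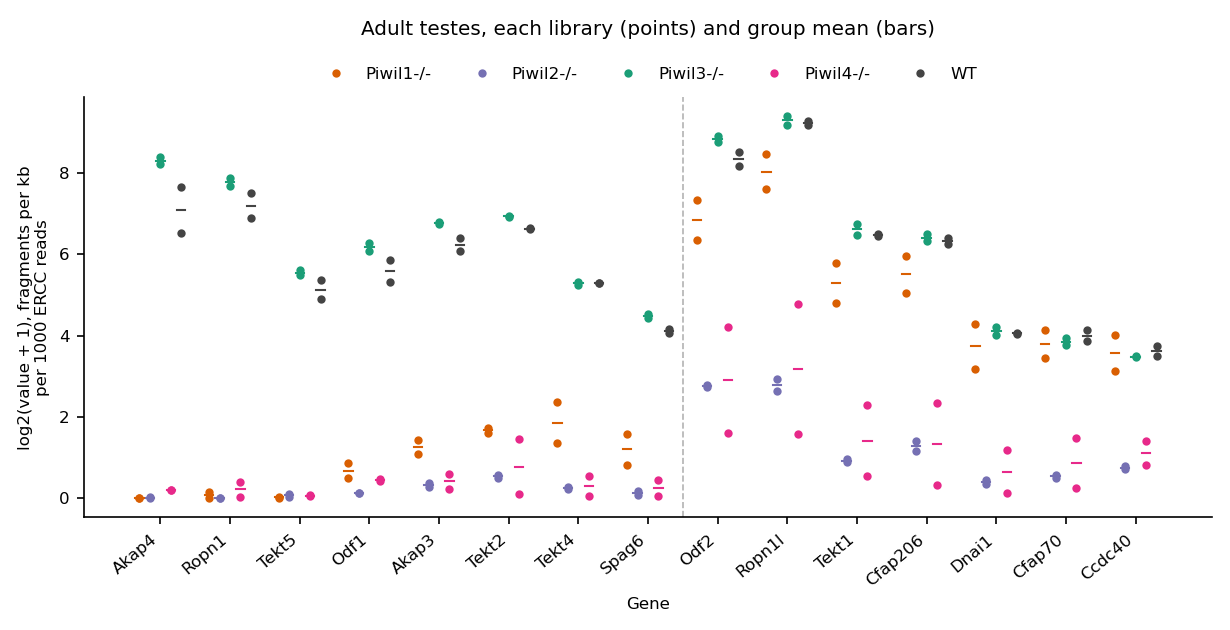
Level of 15 flagellar genes (horizontal axis) in each adult testis library of Piwil1-/-, Piwil2-/-, Piwil3-/-, Piwil4-/- and WT hamsters, as log2(value + 1) of fragments per kilobase of gene per 1000 ERCC reads (vertical axis); points are the 2 libraries and bars their mean on that scale. The 8 genes left of the dashed line were called lower in Piwil1-/- testes, at 0 to 8.49% of the WT mean, whereas the 7 others were not called.

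All but 1 of the late members tested were called, and no early member was. Of 28 members with an onset before round sperm, 23 were tested and none was called lower in Piwil1-/- testes by limma (12 had an unadjusted p under 0.05 and 8 fell at an adjusted p under 0.05), with a median log2 difference of -0.76 and a median level of 58.6% of WT. Of the 10 members with an onset in round or mature sperm, 9 were tested and 8 were called, with a median log2 difference of -4.96 and a median level of 1.89% of WT. The same held across all genes, where 165 of 6924 genes of the earlier onsets were called (2.38%) and 971 of 1355 of the later ones (71.7%), so the split is not particular to flagellar genes. Of these later genes, 952 of 1259 with an onset in round sperm were called (75.6%), but only 19 of 96 with an onset in mature sperm (19.8%). All genes of the earlier onsets had a median log2 difference of 0.00, and those of pachytene onset -0.45, against -0.89 for the 12 members of pachytene onset that were tested. By structure, 3 of 4 fibrous sheath genes, 3 of 5 tektins, 1 of 2 outer dense fibre genes and 1 of 5 central apparatus genes tested were called, while limma called none of the 16 tested in the other classes (8 at an unadjusted p under 0.05, 6 of them at an adjusted p under 0.05).

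2 members did not follow their onset class. Dnai2, an outer arm intermediate chain with its onset in round sperm, had 5.48 and 10.3 units in Piwil1-/- testes, against 15.965 and 11.7 in WT testes, and fell by only 0.78 on the log2 scale (limma, adjusted p = 0.0179). Cfap58, with its onset in spermatogonia, had 1.47 and 2.52 units in Piwil1-/- testes, against 12.02 and 9.13 in WT testes, or 18.9% of the WT mean. It fell by 1.96 (SE 0.18, limma, adjusted p = 4.08e-07), the most of the early members and just short of a call on the log2(value + 1) scale. Cfap58 was also the early member with the largest step from pachytene to round sperm. Dnah3, an inner arm gene of round sperm onset, was too low in WT to be tested, but had 0 reads in the Piwil1-/- and in the Piwil2-/- libraries against 243 in WT, which makes it at least 133-fold and at least 186-fold lower.

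**Figure D3:**
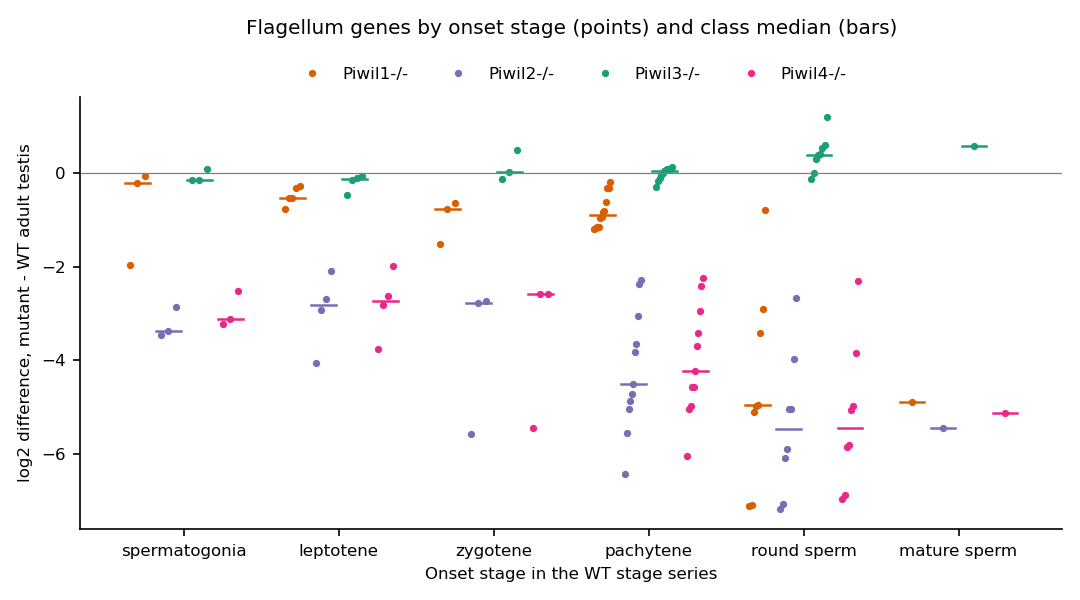
Log2 difference between mutant and WT adult testes (vertical axis) for each flagellar gene tested, grouped by its stage of onset in the WT series (horizontal axis) and coloured by mutant; bars are medians of an onset class. In Piwil1-/- testes genes with an onset before round sperm lie between -1.96 and -0.05 and all but 1 of the later ones below -2, whereas in Piwil2-/- and Piwil4-/- testes genes of every onset are low.

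The size of the step from pachytene to round sperm ran along with the loss. Over the 32 members tested, the log2 difference between Piwil1-/- and WT testes and that between round sperm and pachytene had a Pearson r of -0.89 and a Spearman rho of -0.80, against -0.82 and -0.79 over all 8289 genes tested. In Piwil2-/- and Piwil4-/- testes the members' r was -0.58 and -0.61 (30 members each), against -0.53 and -0.54 over all genes, and in Piwil3-/- testes it was 0.69, against 0.54. These are correlations across genes, which share the same libraries and are not independent replicates.

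**Figure D4:**
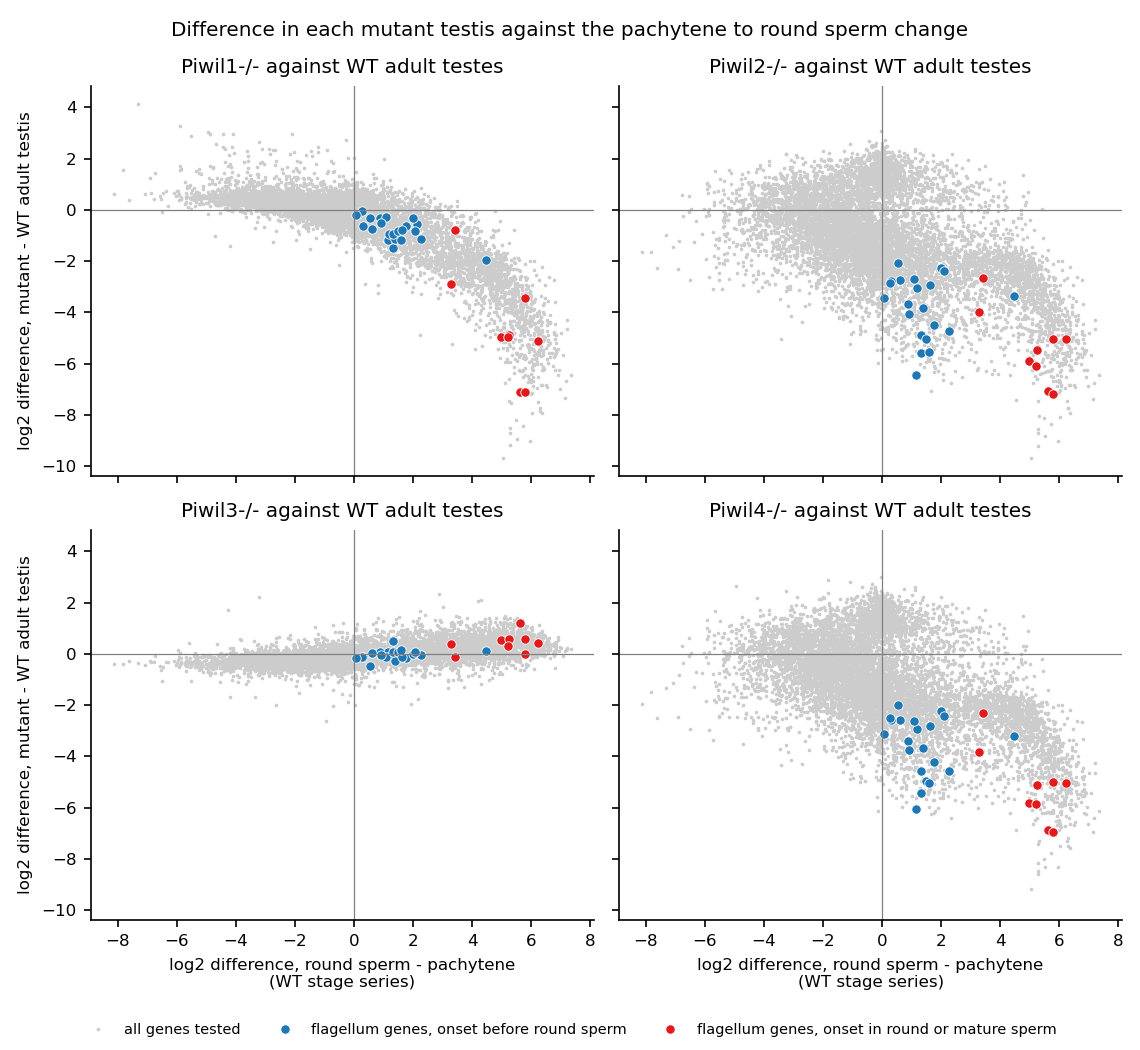
Log2 difference of each flagellar gene between mutant and WT adult testes (vertical axis) against its log2 difference between round sperm and pachytene in the WT stage series (horizontal axis), in 1 panel per mutant, with all genes tested in grey, flagellar genes of onset before round sperm in blue and later ones in red. In the Piwil1-/- panel the genes run downward from about no difference to -7.12 (r = -0.89), and in the Piwil2-/- and Piwil4-/- panels all flagellar genes tested lie below 0.

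Markers of spermatids fell together with the late flagellar genes in Piwil1-/- testes. The summed level of 9 round spermatid markers was 26.8 to 49.8 in Piwil1-/- testes, against 362 to 460 in WT testes, and that of 5 elongating spermatid markers was 0.279 to 0.501, against 1287 to 2608, with 3 of the 5, among them Prm2 and Tnp1, at 0 in both Piwil1-/- libraries. Markers of early prophase were at 208 to 244 in Piwil1-/- testes, against 159 to 184 in WT testes, and those of pachytene and diplotene at 165 to 322, against 285 to 325. The part of these cell types in the losses was not tested.

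In Piwil2-/- and Piwil4-/- testes nearly all flagellar genes were below WT. Of all 39 members, 38 in Piwil2-/- and 37 in Piwil4-/- testes had both libraries below both WT libraries. The same was not counted over all genes, so these counts do not set the members apart. Values of all genes summed to 59242 to 62230 in Piwil2-/- and 59858 to 66181 in Piwil4-/- testes, against 151097 to 153413 in WT testes. All 30 members tested were called lower in Piwil2-/- than in WT testes, where 32.5% of all genes were called, with log2 differences from -7.19 in Ropn1 to -2.09 in Cfap65 and a median of -4.02, against -1.18 over all genes. In Piwil4-/- testes 29 of 30 were called, where 31.4% of all genes were called, with a median of -3.80 against -1.14. The exception was Cfap65, which had 0.292 and 0 units in Piwil4-/- testes, against 4.19 and 2.95 in WT testes. It fell by 1.99 on the log2(value + 1) scale (limma, adjusted p = 1.94e-07). This was short of the 4-fold limit on that scale, which understates the change of low genes. Of the 30 members tested, 28 in the Piwil2-/- and 24 in the Piwil4-/- comparison passed the filter through the WT libraries alone, so the counts of calls were largely set by the filter. Genes of pachytene onset were at a median of 1.51% of WT in Piwil2-/- and 2.77% in Piwil4-/- testes, and those of round sperm onset at 0.410% and 0.554%. Without WT library 1 or 2 fewer members passed the filter and 2 and 6 were called in Piwil2-/- and Piwil4-/- testes, against 29 to 30 in both with the tested genes kept.

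The early members were lost as well in these mutants. Ropn1l had 5.17 and 6.70 units in Piwil2-/- testes, and 26.2 and 1.99 in Piwil4-/- testes, against 577 and 618 in WT testes. Odf2 had 5.69 and 5.91 units in Piwil2-/- testes, and 17.5 and 2.02 in Piwil4-/- testes, against 288 and 366 in WT testes. Ccdc40 had 0.645 and 0.724 units in Piwil2-/- testes, and 1.65 and 0.760 in Piwil4-/- testes, against 12.4 and 10.4 in WT testes. The ranges of both mutants were below WT in all 3 genes, and the Piwil4-/- libraries differed from each other by more than the Piwil2-/- libraries did.

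Piwil2-/- and Piwil4-/- testes differed from WT in their cell markers too. The 9 Sertoli cell markers, from the somatic cells that nurse the germ cells, summed to 896 to 964 in Piwil2-/- and 868 to 1234 in Piwil4-/- testes, against 161 to 210 in WT testes. Pachytene and diplotene markers summed to 12.6 to 15.3 in Piwil2-/- and 4.72 to 31.98 in Piwil4-/- testes, against 285 to 325 in WT testes, and early prophase markers to 20.03 to 25.7 and 18.1 to 54.9, against 159 to 184. Their part in the loss of the flagellar genes was not tested.

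The direct comparison of the mutants placed the early members between them. Of 21 members tested in Piwil1-/- against Piwil2-/- testes, 16 were called higher, where 19.9% of all genes were called, led by Ropn1l at a log2 difference of 5.25, Tekt1 at 4.37, Cfap206 at 4.23 and Odf2 at 4.08. All 16 had an onset before round sperm, and 19 of the 21 passed the filter through the Piwil1-/- libraries alone. Without Piwil1-/- library 1 or 2 fewer passed the filter and 2 were called, against 13 to 19 with the tested genes kept. Among late members, Tekt2 rose by 1.13 (limma, adjusted p = 0.00289) and Dnai2 by 1.88 (limma, adjusted p = 4e-06) without reaching the fold limit on the log2(value + 1) scale. Akap4, Akap3, Ropn1, Tekt5 and Odf1 were under the filter in both mutants. In Piwil4-/- against Piwil2-/- testes only Odf2, at 0.14, and Ropn1l, at 0.39, were tested, and limma called neither (0% of all genes, neither at an unadjusted p under 0.05).

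In Piwil3-/- testes the flagellar genes lay on both sides of their WT level. Of all 39 members, 9 had both Piwil3-/- libraries above both WT libraries and 9 had both below. The same was not counted over all genes. Of the members tested Cfap65 was the lowest against WT, at 2.61 and 1.95 units, against 4.19 and 2.95 in WT testes (log2 difference -0.47). Limma called none of 30 members lower than in WT testes (1 at an unadjusted p under 0.05 in that direction, against 0.0123% of all genes called), and the median log2 difference was 0.04 against -0.09 over all genes. 1 member, Akap4, rose at an adjusted p under 0.05, against 4.91% of all genes, and 5 had an unadjusted p under 0.05 in that direction. Akap4 had 333 and 297 units in Piwil3-/- testes, against 91.5 and 200.3 in WT testes, a log2 difference of 1.21 (SE 0.26, limma, adjusted p = 0.0164). The WT libraries differed from each other by more than the Piwil3-/- libraries did, and the call was lost when either Piwil3-/- library was left out (limma, adjusted p = 0.134 and 0.0742), with a pseudocount of 0.1 (limma, adjusted p = 0.171) or when the compared groups were fitted alone (limma, adjusted p = 0.109).

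The next 3 members on the higher side in Piwil3-/- testes, Ropn1, Odf1 and Akap3, were of late onset too. Ropn1 had 235 and 205 units in Piwil3-/- testes, against 117 and 179.6 in WT testes (log2 difference 0.59, limma, adjusted p = 0.128). Odf1 had 76.2 and 66.03 units in Piwil3-/- testes, against 38.7 and 56.9 in WT testes (log2 difference 0.59, limma, adjusted p = 0.117), and Akap3 had 109 and 106 units, against 66.3 and 83.2 in WT testes (log2 difference 0.53, limma, adjusted p = 0.187). In these 3 genes both Piwil3-/- libraries lay above both WT libraries without passing the test. Elongating spermatid markers moved with them, at a summed 3305 to 3810 in Piwil3-/- testes, against 1287 to 2608 in WT testes, and their part was not tested.

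Sorted cells allowed Piwil1-/- and WT to be compared within a stage of meiosis. There few flagellar genes passed a test. Limma called none of 3 members lower in Piwil1-/- than in WT SPG/PL cells (none at an unadjusted p under 0.05, against 0% of all genes called) and none of 7 in LZ cells (2 at an unadjusted p under 0.05, against 0%). It also called none of 30 in P cells (3 at an unadjusted p under 0.05, against 0.0253%) and none of 33 in D cells (1 at an unadjusted p under 0.05, against 0.0468%). The log2 differences ran from 0.04 to 0.14 in SPG/PL, from -1.16 to -0.06 in LZ, from -0.89 to 0.61 in P and from -0.52 to 0.95 in D. The WT LZ libraries were uneven, with 659 and 1556 reads of Ropn1l in 1A and 1B, against 159 and 168 in 2A and 2B. Piwil1 ran from 1.41 to 77.7 units over these 4 libraries. The part of this unevenness in the LZ differences was not tested. Ropn1l, the most abundant member, had 2454, 1986, 2652 and 2389.6 units in Piwil1-/- D cells, against 2107, 2481, 2578 and 2801 in WT D cells, so the groups overlapped throughout.

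Cfap44, a component of the tether that, in Chlamydomonas and Tetrahymena, links an inner dynein arm to its doublet, rose in Piwil1-/- cells. It had 24.7, 18.9965, 23.98 and 25.0 units in Piwil1-/- D cells, against 8.78, 11.9, 11.9 and 13.6 in WT D cells, a mean of 23.2 ± 2.82 against 11.5 ± 2.02 (SD, n = 4 each). All 4 Piwil1-/- libraries were above all 4 WT libraries, with a log2 difference of 0.95 (limma, adjusted p = 6.04e-05) and an exact permutation p of 0.0286, two-sided, the smallest that 4 libraries against 4 can give. It was the 1 member of 33 that rose at an adjusted p under 0.05 in D cells, where 8.42% of all genes did, and 4 members had an unadjusted p under 0.05 in that direction. The other 3 were Cfap58 at a log2 difference of 0.51 (limma, adjusted p = 0.0729), Tekt4 at 0.50 and Dnai2 at 0.46.

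In P cells Cfap44 had 8.17, 5.39, 8.57 and 5.61 units in Piwil1-/-, against 4.61, 4.89, 3.01 and 4.12 in WT cells. It was also the 1 member of 30 that rose there at an adjusted p under 0.05, where 2.51% of all genes did (log2 difference 0.61, limma, adjusted p = 0.0316, exact permutation p = 0.0286, two-sided). The P call was lost under 9 of 18 alternatives, among them the mean of A and B libraries taken as 1 replicate (limma, adjusted p = 0.170), while the D call was lost under 1 of 18. In whole adult testes Cfap44 had 2.13 and 4.27 units in Piwil1-/-, against 4.34 and 3.80 in WT, and did not differ by the test (limma, adjusted p = 0.209).

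On the lower side, 2 late members came closest to a call. Akap3 had 7.97, 10.3, 10.4 and 8.51 units in Piwil1-/- D cells, against 14.6, 15.5, 11.6 and 12.2 in WT D cells (log2 difference -0.49, limma, adjusted p = 0.164, exact permutation p = 0.0286, two-sided). Odf1 had 1.18, 1.11, 2.43 and 1.95 units in Piwil1-/- P cells, against 4.46, 5.64, 3.08 and 2.69 in WT P cells (log2 difference -0.89, limma, adjusted p = 0.0823, exact permutation p = 0.0286, two-sided). The groups did not overlap in either gene, and neither passed the adjusted test. The exact permutation again took libraries sharing a number as independent. Both genes were higher in the WT libraries numbered 1, and so were the elongating spermatid markers, at a summed 67.9, 85.9, 7.98 and 4.23 in WT D cells and 91.6, 69.6, 3.01 and 7.57 in WT P cells. The WT libraries numbered 2 were above all 4 Piwil1-/- libraries in both genes, and they too held some elongating spermatid marker RNA. The part of these markers in the differences was not tested.

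Akap4 was low in sorted WT cells and was not detected in Piwil1-/- D or P cells. It had 0 reads in all 8 Piwil1-/- D and P libraries, against 67, 65, 7 and 4 reads in the WT D libraries and 89, 39, 3 and 1 in the WT P libraries, where the first 2 are the libraries numbered 1. The WT LZ libraries held 58, 135, 3 and 0 reads of Akap4 and the WT SPG/PL libraries 35, 81, 0 and 0. The 5 elongating spermatid markers followed the same order, with sums of 0 to 0.303 in Piwil1-/- D cells, against 4.23 to 85.9 in WT D cells, and 0 to 0.434 in Piwil1-/- P cells, against 3.01 to 91.6 in WT P cells. Their part in the Akap4 reads of WT cells was not tested.

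**Figure D5:**
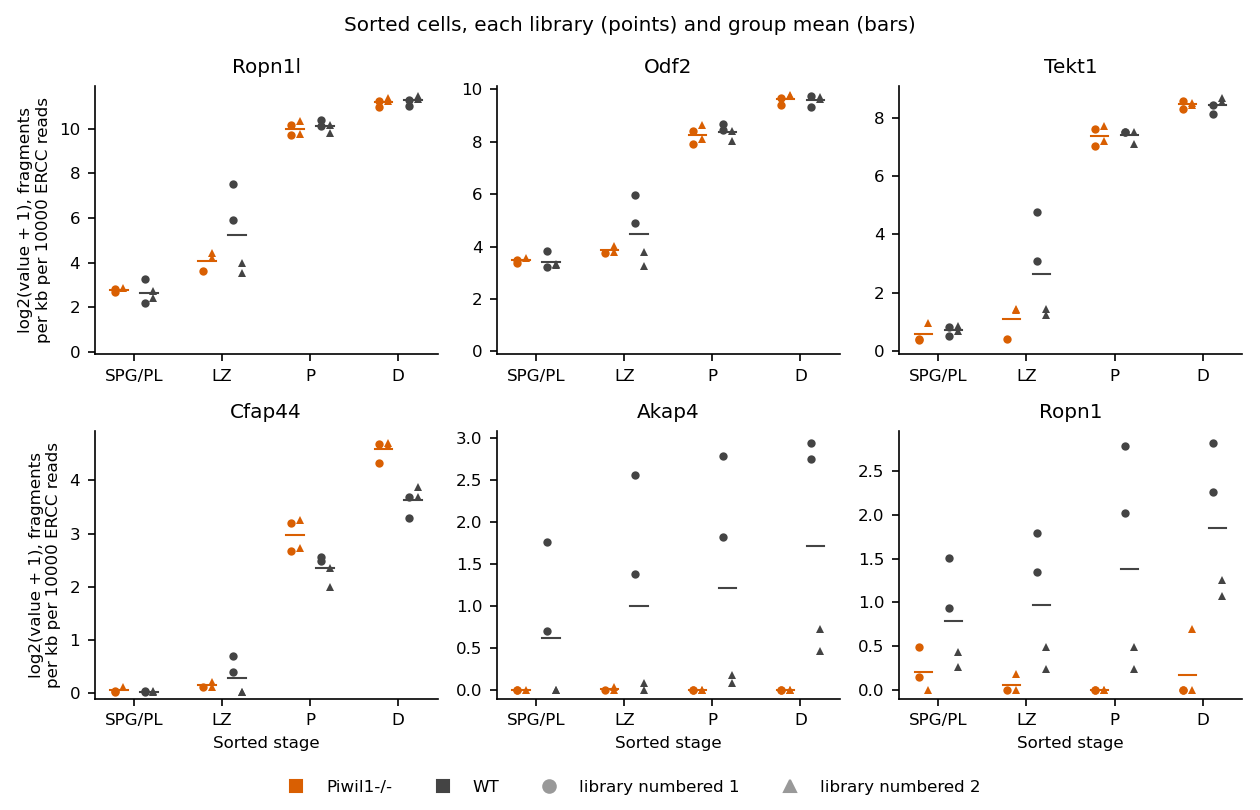
Level of Ropn1l, Odf2, Tekt1, Cfap44, Akap4 and Ropn1 in each sorted library of Piwil1-/- and WT germ cells by fraction (SPG/PL, LZ, P, D, horizontal axis), as log2(value + 1) of fragments per kilobase per 10000 ERCC reads (vertical axis); bars are group means on that scale, circles are libraries numbered 1 and triangles those numbered 2. Ropn1l, Odf2 and Tekt1 overlap between genotypes in D and P cells, Cfap44 is higher in all 4 Piwil1-/- D libraries, and Akap4 is at 0 in all 8 Piwil1-/- D and P libraries.

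Most flagellar genes tested were called higher in P than in LZ cells in both genotypes, a step at which most other genes were higher as well. From SPG/PL to LZ Cfap206 was called higher in Piwil1-/- cells, at a log2 difference of 2.31, as 1 of 7 members tested (1.51% of all genes), and Cfap206, at 2.83, and Ropn1l, at 2.59, were called in WT cells as 2 of 6 (2.97%). From LZ to P 24 of 27 were called higher in Piwil1-/- cells, where 35.3% of all genes were called, and 24 of 28 in WT cells, where 31.8% were called. All genes tested had a median log2 difference of 1.52 in Piwil1-/- and 1.43 in WT cells at this step, against 3.12 and 2.85 for the members. With libraries rescaled to equal totals 16 members were called in Piwil1-/- and 13 in WT cells, and with median ratios 17 and 14. Of the members tested, 20 of 27 in Piwil1-/- and 8 of 28 in WT cells passed the filter through P cells alone. WT LZ libraries 1A and 1B held more RNA of some members of pachytene onset, such as Tekt1 at 131 and 355 reads, against 33 and 30 in 2A and 2B. The part of this unevenness in the WT steps to and from LZ and in the filter was not tested. In WT cells Ropn1l, at 4.89, and Tekt1, at 4.77, led this step. From P to D 3 of 32 were called higher in Piwil1-/- cells (4.81% of all genes), namely Dnai2 at 2.74, Tekt4 at 2.70 and Dnah8 at 2.31, and 2 of 35 in WT cells (2.88%), Dnah8 at 2.06 and Dnai2 at 2.04. Without the WT libraries numbered 1, the WT counts were 1 from SPG/PL to LZ and 4 from P to D. Leaving out LZ library 1B alone also gave 1, and leaving out D library 2B or P library 1A or 2A gave 0 from P to D.

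The steps themselves were then compared between the genotypes by an interaction term. Limma called none of 7 members for a difference in the step from SPG/PL to LZ (0% of all genes, none at an unadjusted p under 0.05), none of 29 for that from LZ to P (0.212% of all genes, 4 at an unadjusted p under 0.05) and none of 33 for that from P to D (0.0708% of all genes, 3 at an unadjusted p under 0.05). The largest estimates at the last step were Tekt4 at 0.93 (limma, adjusted p = 0.347) and Dnai2 at 0.70 (limma, adjusted p = 0.523), both steeper in Piwil1-/- cells.

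Other genes of the same structures were counted for comparison, as lists that hold no member. Of 49 other axoneme genes tested in Piwil1-/- against WT adult testes, 6 were called lower, with a median log2 difference of -0.69, where 13.7% of all genes were called and their median was -0.13. The dynein assembly factor Dnaaf1, the most abundant of them in WT, was at 130 to 268 in Piwil1-/- testes, against 225 to 265 in WT testes. Of 18 other genes of accessory structures, 6 were called lower, with a median of -1.08, and Oaz3, a regulator of polyamine synthesis in spermatids, was at 0 in both Piwil1-/- libraries, against 348 to 709 in WT testes. Intraflagellar transport genes, which carry tubulin and cargo along the growing axoneme, had 1 of 21 called lower and a median of -0.01. Of 10 regulators of ciliary and spermatid genes 2 were called lower, with a median of -0.63, and the ciliary transcription factor gene Rfx2 was at 16.3 to 35.4 in Piwil1-/- testes, against 22.7 to 28.9 in WT testes.

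More genes of these lists were called lower in Piwil2-/- and Piwil4-/- testes, a difference between mutants that was not tested for the lists. As with the members, a gene that passed the filter through the WT libraries alone had to differ. How many genes of these lists passed in that way was not counted, here or in the Piwil1-/- comparison, so the counts do not rank the structures. Over all genes 32.5% were called lower in Piwil2-/- and 31.4% in Piwil4-/- testes. Called lower in Piwil2-/- testes were 35 of 45 other axoneme genes (median log2 difference -3.06), 16 of 18 accessory structure genes (-4.71), 10 of 20 intraflagellar transport genes (-2.01) and 8 of 9 regulators (-3.11). In Piwil4-/- testes the counts were 37 of 45 (-2.97), 16 of 18 (-4.48), 9 of 20 (-1.90) and 9 of 9 (-2.999). The median of the intraflagellar transport list was thus the nearest to that of all genes, -1.18 and -1.14. In Piwil3-/- testes limma called no gene of these lists lower, and 3 of 19 accessory structure genes rose at an adjusted p under 0.05.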

How the data were processed

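RNA-seq of golden hamster (LVG Golden Syrian) testes and sorted germ cells was analysed in 60 libraries: 16 of whole testes, 30 of sorted cells and 14 of the WT stage series. As the study's methods give it, libraries were made by Smart-seq2, reads were trimmed with Trim Galore, aligned with STAR and counted with featureCounts with multi-mapped reads kept. The deposited values of whole testes and sorted cells are a ratio computed by the authors, fragments per kilobase of gene per 1000 or per 10000 ERCC reads, and the deposited values of the stage series are FPKM. Read counts and depth were recovered from the steps of the values: whole testes held 7976 to 33650 ERCC reads, sorted cells 29996 to 190472, and totals of 1640719 to 6851089 reads lay behind the FPKM. Intervals and floors on reads cover counting error only. 2 columns that matched no listed sample were not used, nor were the oocyte and small RNA data.

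Members and marker lists were chosen with earlier results of these data known. For each table all groups were fitted together in limma 3.58.1 (R 4.3.3) on log2(value + 1) with trend, and p-values were adjusted by Benjamini-Hochberg over all genes tested in a comparison. Fold changes on this scale understate the change of low genes. Tested genes were above 2 in 40% or more of the compared libraries, or above 0 where fewer than 5000 genes passed. A call needed a 4-fold difference at an adjusted p under 0.01, and an adjusted p under 0.05 was also counted. The fit was tested on simulated data. Values in every library were given for the most abundant member of each structural class, the 5 lowest and 5 highest members in Piwil1-/- against WT adult testes, the 3 earliest and 3 latest in onset, members called in sorted Piwil1-/- cells and members that went against most others, to which Odf1, Tekt4, Spag6, Tekt1, Cfap58, Dnai2 and Akap3 were added after their values were seen. Alternatives were another pseudocount, filter, scaling, variance prior and set of libraries, a replicate block, and each library left out. Leaving out a library with the tested genes kept was added after seeing the data.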

Additional observations from a re-analysis of the deposited data

Results flagged for a closer look

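Among 33 groups of 4 sorted libraries examined for the members described library by library, 2 held a library far from the other 3, and chance flags about 1 in 20 groups. Cfap44 was at 18.9965 in Piwil1-/- D library 1B, below the other 3 Piwil1-/- D libraries at 23.98 to 25.0, and this lowest library still lay above all 4 WT D libraries. Ropn1 was at 0.619, or 2 reads, in Piwil1-/- D library 2A, while the other 3 Piwil1-/- D libraries were at 0.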

How the results depend on the processing

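Of 640 alternative settings of the 29 counts and onset results, 594 gave a count within 1.5 times the main one and 46 moved it. Counting by an adjusted p under 0.05 without a fold limit gave 17 members in Piwil1-/- against WT adult testes, 6 in leptotene, 4 in zygotene, 25 in pachytene and 29 in round sperm, 4 in Piwil1-/- and 6 in WT cells from SPG/PL to LZ, and 30 in each genotype from P to D. Rescaling libraries by median ratios gave 22 in round sperm and, in WT cells, 14 from LZ to P and 0 from P to D. Equal totals gave 2 in Piwil1-/- and 6 in WT cells from SPG/PL to LZ, 13 in WT cells from LZ to P, and 1 in Piwil1-/- and 0 in WT cells from P to D. From SPG/PL to LZ a pseudocount of 0.1 gave 2 in Piwil1-/- and 4 in WT cells, a filter over 5 gave 1 in WT, and leaving out the WT libraries numbered 1 gave 1, and 4 from P to D. Onset at 50% of the highest stage mean put 9 members before round sperm, against 28 at 10%.

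Leaving out each library in turn gave 2 to 9 called members in Piwil1-/-, 2 to 30 in Piwil2-/- and 6 to 30 in Piwil4-/- against WT testes, 2 to 17 in Piwil1-/- against Piwil2-/- testes, 2 to 30 in adult against 3 d.p.p. testes, 7 to 12 in pachytene and 9 to 14 in round sperm. The low ends arise because fewer genes pass the filter. With the tested genes kept, an alternative chosen after seeing the data, they were 8 to 9, 29 to 30, 29 to 30, 13 to 19, 29 to 30, 11 to 12 and 12 to 14. In WT sorted cells the range was 1 to 2 from SPG/PL to LZ (1 without LZ library 1B, also with the tested genes kept) and 0 to 3 from P to D, where with the tested genes kept the count was 1 without D library 1B or 2A and 0 without D library 2B or P library 1A or 2A.

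The estimate for Ccdc40 in Piwil1-/- testes, -0.05, was 0.40 with equal totals, 0.033 with median ratios and -0.50 to 0.39 with a library left out, and never passed the test. Equal totals moved the median of all genes from -0.13 to 0.33 in Piwil1-/- and from -1.18 to 0.25 in Piwil2-/- against WT testes, since they remove differences in total RNA per spike-in. The replicate number as a block changed no count by over 1.5 times, for example 8 members in Piwil1-/- and 30 in Piwil2-/- testes with the block. Same-numbered deviations had a median correlation of 0.01 in whole testes, 0.02 in sorted cells and -0.01 in the stage series, so the libraries were not treated as paired. The sorted WT libraries numbered 1 did share a higher level of elongating spermatid markers. 1 read in a gene of 1 kb was worth up to 0.125 units in whole testes, and the members under 1 in WT could not be tested there.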
